A study of Mus musculus with 21 samples.

Results

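The 6 mouse genes Fcgr1, Fcgr2b, Fcgr3, Fcgr4, Fcer1g and Fcgrt, which encode the main receptors for the constant (Fc) part of immunoglobulin G and a signalling chain they share, were followed across 6 groups of mice. They were chosen by name and matched by symbol to their Ensembl gene identifiers. All 6 were found among the 55401 genes of the count table, and all 6 passed the filter on low counts in each of the 13 comparisons made. RNA came from the forebrains of 21 mice. The parental groups, E2H, E3H and E4H (3 mice each), were targeted replacement lines on a C57BL6 background in which human APOE2, APOE3 or APOE4 took the place of both mouse Apoe alleles, and were 9 to 10 months old. The tau groups PS/E2H, PS/E3H, PS/E4H (4 mice each) carried the same homozygous human APOE alleles and also 1 copy of the PS19 transgene, human tau with the P301S mutation driven by the mouse prion protein promoter. They were second-generation offspring of a PS19 stock kept on B6/C3H, and were taken when hindlimb paralysis set in. All 21 mice therefore lacked a mouse Apoe allele, and mice with mouse Apoe were not analysed here. Because only PS19 mice were paralyzed, and parental mice were taken at a fixed age, the tau transgene, paralysis, age at death and the C3H share of the background cannot be told apart. Most mice were male, females were present in E4H, PS/E2H and PS/E4H, and the labels give no sex for a single mouse.

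The total count per mouse ran from 59265459 to 75932183, with a median of 63751715. Levels are given as CPM, read counts scaled to a common library size after TMM normalisation. Mouse Apoe stood at 9.83 to 16.3 CPM in all 21 libraries. Prnp, whose sequence the PS19 transgene carries in part, stood at 821 to 1056 CPM in the 9 parental mice and at 1391 to 1932 CPM in the 12 PS19 mice, so no library went against its tau label. Of the tissue label only its neural part was checked, with 4 neuron markers (Rbfox3, Snap25, Syt1 and Stmn2), whose summed level was 3528 to 4623 CPM. These markers cannot tell forebrain from other neural tissue. A value in bulk tissue cannot tell a change in the number of cells of a type from a change in the RNA each cell holds.

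Fc receptors let a cell sense antibody bound to its target. Fcgr1 encodes the high-affinity receptor, while Fcgr3 and Fcgr4 encode activating receptors of lower affinity. These 3 receptors signal through the common gamma chain, the product of Fcer1g, whose ITAM motif is phosphorylated by Src-family kinases and then binds the kinase Syk. Fcgr2b encodes the only inhibitory Fc gamma receptor of the mouse, which carries an ITIM and recruits the lipid phosphatase SHIP1 (Inpp5d). In the brain these genes are known mainly from microglia and from macrophages of the meninges and vessels. Fcgrt encodes the heavy chain of the neonatal receptor FcRn, which pairs with beta-2-microglobulin (B2m), salvages IgG and albumin from breakdown, and is not part of the ITAM pathway.

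On the GRCm38 assembly, Fcgr2b (ENSMUSG00000026656, chr1:170958617-170976547, minus strand), Fcgr4 (ENSMUSG00000059089, chr1:171018920-171029761, plus strand), Fcgr3 (ENSMUSG00000059498, chr1:171051174-171064935, minus strand) and Fcer1g (ENSMUSG00000058715, chr1:171229572-171234365, minus strand) lie in 1 cluster. Fcgr1 (ENSMUSG00000015947) is at chr3:96282909-96293969 and Fcgrt (ENSMUSG00000003420) at chr7:45092990-45103851, both on the minus strand. All 6 are protein-coding. In the annotation Fcgr2b and Fcgrt each overlap an antisense gene (Gm38204 and Gm45669), and the authors' counting is not stated to use strand. Of the 50-base windows in the annotated transcripts, 9.58% for Fcgr3 also occur in Fcgr2b, and 4.38% for Fcgr2b occur in 47 other genes, Fcgr3 among them. The other 4 members share 0 windows with any gene, so only reads of Fcgr2b and Fcgr3 could have been divided between members.

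The promoters of the 4 Fc gamma receptor genes are shown because these genes were all higher in the PS19 mice and differ in the motifs found near their starts. The sequences are RefSeq windows on GRCm38.p6, from 250 bases before the transcription start to 50 after it. Capitals mark matches, on either strand, to 3 motifs: GAGGAA, the core that the myeloid factor PU.1 binds, TTCNNNGAA, the form bound by STAT factors, and GAAA followed, across NN, by a second GAAA, the core of the interferon-stimulated response element.
Fcgr1, chr3:96293920-96294219, minus strand: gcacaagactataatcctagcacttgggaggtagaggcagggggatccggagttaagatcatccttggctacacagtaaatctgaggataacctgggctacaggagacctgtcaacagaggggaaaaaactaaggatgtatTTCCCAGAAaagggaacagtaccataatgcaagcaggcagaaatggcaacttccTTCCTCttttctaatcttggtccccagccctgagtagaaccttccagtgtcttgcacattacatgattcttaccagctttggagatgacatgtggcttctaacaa
Fcgr3, chr1:171059354-171059653, minus strand: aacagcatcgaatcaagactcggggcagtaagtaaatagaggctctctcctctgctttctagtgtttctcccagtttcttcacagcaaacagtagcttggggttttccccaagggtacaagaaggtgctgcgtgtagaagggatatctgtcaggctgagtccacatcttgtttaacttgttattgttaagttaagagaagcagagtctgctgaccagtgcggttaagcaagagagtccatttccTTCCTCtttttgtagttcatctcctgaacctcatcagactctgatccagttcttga
Fcgr4, chr1:171018676-171018975, plus strand: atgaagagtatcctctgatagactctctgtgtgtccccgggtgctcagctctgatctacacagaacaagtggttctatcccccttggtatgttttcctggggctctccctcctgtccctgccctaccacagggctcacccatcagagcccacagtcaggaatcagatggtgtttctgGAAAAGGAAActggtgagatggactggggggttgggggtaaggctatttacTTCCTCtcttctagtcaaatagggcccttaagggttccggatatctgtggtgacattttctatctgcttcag
Fcgr2b, chr1:170976022-170976321, minus strand: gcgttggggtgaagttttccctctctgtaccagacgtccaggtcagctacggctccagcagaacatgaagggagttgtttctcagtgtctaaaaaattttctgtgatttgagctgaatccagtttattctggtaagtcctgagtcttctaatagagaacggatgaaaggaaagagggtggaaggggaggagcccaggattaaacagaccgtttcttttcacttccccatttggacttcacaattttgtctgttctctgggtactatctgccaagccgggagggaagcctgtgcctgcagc
The 3 activating receptor genes each held GAGGAA, read as TTCCTC on the strand shown, and Fcgr2b, Fcer1g and Fcgrt held none of the 3 motifs in this window. The match began 55 bases before the start in Fcgr1, 22 in Fcgr4 and 6 in Fcgr3. Fcgr1 also held TTCNNNGAA 109 bases before the start and Fcgr4 held the GAAA pair 73 bases before it. Over 32851 mouse promoter windows of this length, 28.3% held GAGGAA, 8.30% TTCNNNGAA and 3.44% the GAAA pair. The RefSeq start of Fcgr3 used here lies 5532 bases inside the annotated gene, and from another RefSeq start of Fcgr3 the same match lies 15 bases before it. The Fcgr2b start used lies 476 bases inside its annotated gene, so the Fcgr2b window does not reach the annotated start.

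Fcgr3 was the most abundant Fc gamma receptor in every group when levels were compared per length, as FPKM. Its mean share of the summed FPKM of the 4 Fc gamma receptors was 77.5% ± 2.78 (SD, n = 3) in E2H, 78.2% ± 2.13 in E3H and 76.9% ± 0.520 in E4H mice, and 73.9% ± 4.91 (n = 4), 73.2% ± 1.78 and 73.7% ± 3.11 in the matching PS19 groups. Fcgr1 gave mean shares between 11.4% and 13.4% in the 6 groups. The mean share of Fcgr2b was 6.65% to 8.39% in the parental groups and 9.37% to 11.7% in the PS19 groups, and that of Fcgr4 1.64% to 2.44% and 3.72% to 5.13%. Fcer1g, the shared chain, had an FPKM of 5.35 to 10.4 in parental and 12.01 to 28.1 in PS19 mice. Fcgrt had 6.19 to 8.71 in parental and 7.67 to 11.998 in PS19 mice.

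Fcgr1, the high-affinity receptor, had 4.22, 4.95 and 4.02 CPM in the E2H mice (replicates 1 to 3), 3.62, 2.95 and 2.87 in E3H and 3.34, 2.98 and 3.65 in E4H. In PS/E2H mice (replicates 1 to 4) it had 8.59, 8.10, 9.66 and 5.17 CPM, in PS/E3H 6.61, 7.60, 8.81 and 9.26, and in PS/E4H 12.5, 9.67, 11.5 and 10.4. Every PS19 mouse lay above every parental mouse, the lowest being PS/E2H replicate 4, and the 4 PS/E4H mice lay above all other PS19 mice, by a narrow margin over PS/E2H replicate 3. Over the 3 lines together, Fcgr1 rose by a log2 fold change of 1.31 ± 0.129 (SE, 12 against 9 mice), or 2.47-fold, with an edgeR adjusted p of 2.15e-07.

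Fcgr3, an activating receptor, had 15.4, 22.2 and 14.5 CPM in E2H, 13.8, 14.8 and 12.9 in E3H and 12.9, 13.8 and 12.8 in E4H mice. It had 34.96, 26.5, 33.3 and 46.3 CPM in PS/E2H, 25.1, 32.6, 39.8 and 44.1 in PS/E3H and 45.3, 37.6, 56.2 and 44.0 in PS/E4H mice. The PS19 and parental mice did not overlap, although E2H replicate 2 came near the lowest PS19 mouse. PS/E2H replicate 4, lowest of the PS19 mice for Fcgr1, was the highest of its group for Fcgr3 and Fcgr4. Over all lines Fcgr3 rose 2.62-fold (log2 1.39 ± 0.130 SE, adjusted p = 1.06e-07).

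Fcgr4, the other activating receptor, was close to the lower limit of detection in parental mice, with 49, 26 and 8 counts in E2H, 6, 8 and 41 in E3H and 8, 24 and 14 in E4H. The PS/E2H mice had 95, 61, 142 and 156 counts, the PS/E3H mice 79, 88, 60 and 119 and the PS/E4H mice 153, 68, 109 and 91. In CPM the lowest PS19 mouse stood at 0.956 and the highest parental mouse at 0.651, so the groups did not overlap. Fcgr4 had the largest fold change of the 6 members over all lines, 5.64-fold (log2 2.50 ± 0.333 SE, adjusted p = 1.05e-05), and also the widest error.

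Fcer1g, the chain that carries the ITAM for all 3 activating receptors, had 7.44, 10.6 and 7.05 CPM in E2H, 6.52, 6.24 and 6.12 in E3H and 6.48, 5.08 and 5.22 in E4H mice. It had 14.3, 12.9, 19.7 and 14.4 CPM in PS/E2H, 11.8, 20.3, 15.8 and 20.1 in PS/E3H and 26.5, 20.9, 19.6 and 20.02 in PS/E4H mice. All PS19 mice lay above all parental mice, with E2H replicate 2 again the highest of the parental mice. Over all lines Fcer1g rose 2.66-fold (log2 1.41 ± 0.145 SE, adjusted p = 3.29e-07).

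Fcgr2b, the inhibitory receptor, had 5.06, 5.24 and 4.36 CPM in E2H, 4.91, 4.82 and 4.38 in E3H and 4.60, 5.65 and 4.19 in E4H mice. It had 14.2, 7.70, 21.8 and 17.1 CPM in PS/E2H, 10.3, 21.1, 19.6 and 26.1 in PS/E3H and 26.5, 18.7, 21.8 and 20.01 in PS/E4H mice. The 9 parental mice were close together, and the PS19 mice lay above them with a wide spread in PS/E2H and PS/E3H. Over all lines Fcgr2b rose 3.86-fold (log2 1.95 ± 0.165 SE, adjusted p = 2.70e-08).

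Fcgrt, the FcRn heavy chain, had 15.3, 20.7 and 18.5 CPM in E2H, 18.9, 15.8 and 16.2 in E3H and 19.8, 16.4 and 14.2 in E4H mice. It had 23.3, 27.5, 22.5 and 18.1 CPM in PS/E2H, 18.1, 26.5, 22.8 and 25.8 in PS/E3H and 24.4, 26.1, 22.8 and 26.7 in PS/E4H mice. Here the groups overlapped, and 10 of the 12 PS19 mice lay above all 9 parental mice. The rise over all lines was 1.37-fold (log2 0.46 ± 0.0859 SE, adjusted p = 5.05e-04), which passed the test and stayed under 2-fold.

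**Figure D1:**
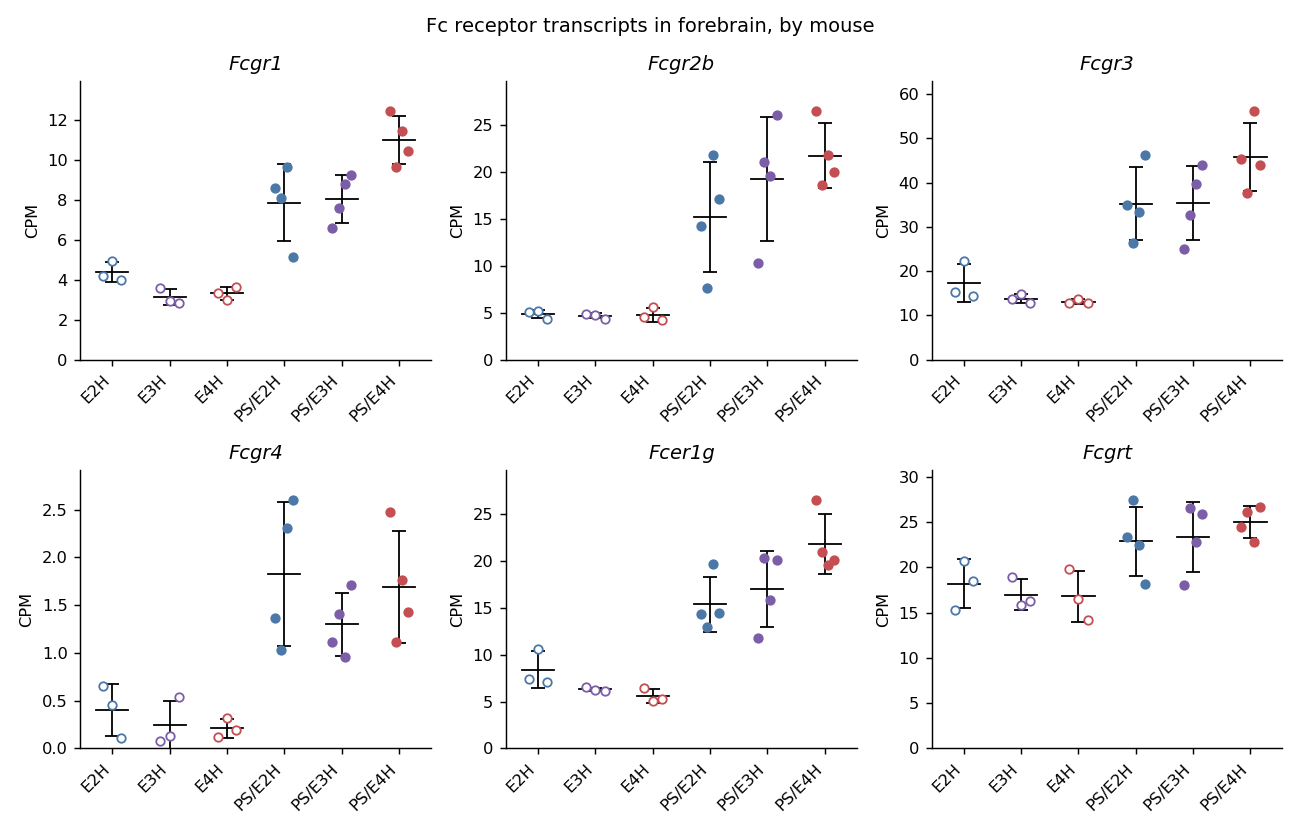
CPM of each Fc receptor gene in each of the 21 mice, by group, with open points for parental and filled points for PS19 mice, a horizontal line for the group mean and bars of 1 SD. For Fcgr1, Fcgr2b, Fcgr3, Fcgr4 and Fcer1g the 12 PS19 mice lie above the 9 parental mice, while for Fcgrt 10 of 12 do.

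Over the 3 lines together, 6 of the 6 members passed at an adjusted p under 0.05 and 5 of them rose at least 2-fold. Of all 22863 genes tested in that fit, 11.4% passed as higher and 2.24% were higher by 2-fold or more. For 5 members the PS19 and parental ranges did not overlap, against 1.4% of all genes.

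Each line was then compared with its own parental group, which asks whether the receptors moved in every APOE background. In PS/E4H against E4H mice, 6 of 6 members rose and 5 of them by at least 2-fold, where 8.62% of 20844 genes passed as higher and 2.4% did so by 2-fold. The log2 fold changes were 2.997 ± 0.432 (SE) for Fcgr4, 2.18 ± 0.158 for Fcgr2b, 1.96 ± 0.145 for Fcer1g, 1.80 ± 0.129 for Fcgr3, 1.73 ± 0.142 for Fcgr1 and 0.58 ± 0.119 for Fcgrt, with adjusted p from 4.71e-05 (Fcgr3) to 0.0110 (Fcgrt). The ranges of the 2 groups did not overlap for all 6 members, against 14.2% of genes. Without E4H replicate 2 the adjusted p of Fcgrt was 0.0541.

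In PS/E3H against E3H mice, 5 of 6 members rose, all 5 by at least 2-fold, where 3.35% of 21251 genes passed as higher and 1.2% did so by 2-fold. Fcgr2b had a log2 fold change of 2.02 ± 0.260 (SE, adjusted p = 0.00416), Fcer1g 1.42 ± 0.179 (0.00387), Fcgr1 1.34 ± 0.168 (0.00369), Fcgr3 1.34 ± 0.169 (0.00387) and Fcgr4 2.35 ± 0.579 (0.0433). Fcgrt, at 0.44 ± 0.133, did not pass (adjusted p = 0.0840). The ranges did not overlap for 5 members, against 10.9% of genes. The call of Fcgr4 depended on single mice: its adjusted p was 0.146 without E3H replicate 1, 0.149 without E3H replicate 2, and 0.0777, 0.0608 and 0.114 without PS/E3H replicates 2, 3 and 4. Without PS/E3H replicate 1, the lowest of its group for 5 of the 6 members, Fcgrt passed at 0.55 (adjusted p = 0.00720).

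In PS/E2H against E2H mice, 1 of 6 members passed, where 0.669% of 20617 genes passed as higher and 0.451% did so by 2-fold. This was Fcgr2b, with a log2 fold change of 1.63 ± 0.295 (SE, adjusted p = 0.0424). Fcgr3 stood at 1.02 ± 0.207 (adjusted p = 0.0631), Fcer1g at 0.87 ± 0.193 (0.0900), Fcgr1 at 0.84 ± 0.214 (0.133), Fcgr4 at 2.17 ± 0.557 (0.137) and Fcgrt at 0.33 ± 0.160 (0.509). The ranges of PS/E2H and E2H mice still did not overlap for 5 members, against 6.47% of genes, and 5 members had an unadjusted p under 0.05, as did 2203 of the 20617 genes. The number that passed was 0 without E2H replicate 1 or 3 or PS/E2H replicate 1 or 3, and 2 without E2H replicate 2 (Fcgr3 and Fcer1g) or PS/E2H replicate 2 (Fcgr2b and Fcgr3), and without PS/E2H replicate 4 it was 1, Fcgr1 in place of Fcgr2b. With DESeq2 5 members passed, where 690 of 20617 genes did, and 5 also passed when all 21 mice were fitted together, where 557 of 22863 genes did, against 155 genes in the fit of these groups alone.

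**Figure D2:**
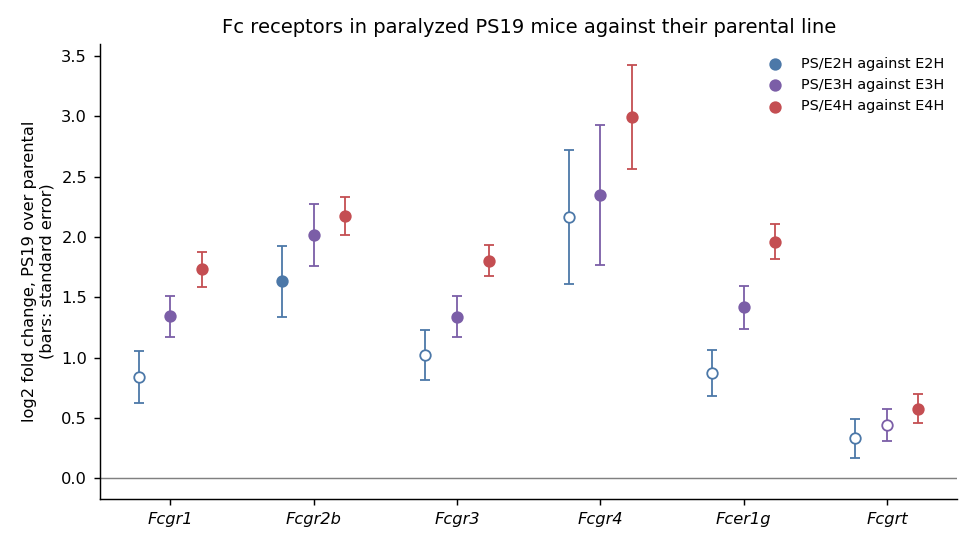
Log2 fold change of each Fc receptor gene in PS19 over parental mice of the same APOE line, with bars of 1 standard error, from edgeR fits of 4 against 3 mice. Filled points passed at an adjusted p under 0.05, and open points did not: all 6 points are filled for PS/E4H, 5 for PS/E3H and 1, Fcgr2b, for PS/E2H.

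The fold changes of the 6 members stood in the order PS/E4H, PS/E3H, PS/E2H, and the differences were tested as interactions. With edgeR, 0 of 6 members passed in any of the 3 interaction tests, as did 0 of all genes in each (a background of 0%). The tau fold change of PS/E4H exceeded that of PS/E2H by 1.09 ± 0.251 (log2, SE) for Fcer1g (adjusted p = 0.273), by 0.89 ± 0.258 for Fcgr1 (adjusted p = 0.335) and by 0.78 ± 0.258 for Fcgr3 (adjusted p = 0.370). These 3 were the members with an unadjusted p under 0.05 there, among 2223 such genes of 22031 tested. DESeq2 passed 112 genes in that interaction, Fcer1g among them (1.09 ± 0.259, adjusted p = 0.0144). For APOE4 against APOE3, Fcer1g alone of the members had an unadjusted p under 0.05 (0.54 ± 0.237, adjusted p = 0.9999), among 847 genes, with 11 genes passing in DESeq2. For APOE2 against APOE3 no member did, among 1265 genes, with 10 genes passing in DESeq2.

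The parental groups were compared with one another. In E4H against E2H mice the log2 fold change was -0.59 ± 0.196 (SE) for Fcer1g (adjusted p = 0.363), -0.41 ± 0.172 for Fcgr1 (adjusted p = 0.393) and -0.41 ± 0.170 for Fcgr3 (adjusted p = 0.390). In E2H against E3H it was 0.48 ± 0.181 for Fcgr1 (adjusted p = 0.301) and 0.41 ± 0.178 for Fcer1g (adjusted p = 0.343). For E4H against E3H no member had an unadjusted p under 0.05. The number of members that passed was 0 in all 3 parental comparisons with edgeR and with DESeq2, where 0.178% (E2H against E3H), 0.162% (E4H against E3H) and 0.216% (E4H against E2H) of genes passed. E2H replicate 2, the parental mouse highest for Fcgr1, Fcgr3, Fcer1g and Fcgrt, also had the highest summed level of 9 microglia markers among the parental mice (467 CPM against 382 to 419 in the other 8). The part of that marker level in the result was not tested. Without single mice, E4H against E2H gave -0.71 to -0.38 for Fcer1g, -0.48 to -0.31 for Fcgr1 and -0.53 to -0.19 for Fcgr3. E2H against E3H gave 0.39 to 0.59 for Fcgr1 and 0.20 to 0.52 for Fcer1g, and 0 members passed in any of these fits.

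Among the PS19 mice the 3 genotypes were compared in the same way, and again 0 members passed with edgeR or DESeq2, where 0.0197% (PS/E4H against PS/E3H), 0.119% (PS/E4H against PS/E2H) and 0.113% (PS/E2H against PS/E3H) of genes passed. PS/E4H mice had more Fcgr1 than PS/E3H mice by a log2 value of 0.45 ± 0.136 (SE, adjusted p = 0.758) and more Fcgr3 by 0.38 ± 0.167 (adjusted p = 0.762). Against PS/E2H mice the differences were 0.50 ± 0.145 for Fcer1g (adjusted p = 0.298), 0.48 ± 0.178 for Fcgr1 (adjusted p = 0.356) and 0.37 ± 0.164 for Fcgr3 (adjusted p = 0.398). PS/E2H and PS/E3H mice differed by at most 0.50 in either direction (Fcgr4, ± 0.327), and no member had an unadjusted p under 0.05. In the order of group means, 1 of 6 members, Fcgr1, set a PS19 genotype apart from its neighbour: the 4 PS/E4H mice lay above the PS/E3H mice, as they did for 1.75% of all genes. The E2H mice lay above the E4H mice for 3 of 6 members, Fcgr1, Fcgr3 and Fcer1g, against 10.7% of genes, and above the E3H mice for 2 of 6, Fcgr1 and Fcer1g, against 12.7%. The parental and PS19 comparisons share their groups with the interactions, so these values are not independent of one another. The paper reports that PS/E3H mice reached paralysis later than PS/E2H and PS/E4H mice. Genotype and age at death therefore cannot be told apart in the PS19 comparisons and interactions that involve APOE3. By the paper's methods females were in E4H, PS/E2H and PS/E4H only, so sex was not balanced in comparisons that involve these groups.

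Microglia express these receptors, and their markers were also higher in the PS19 mice. Of 9 microglia markers, 6 rose over all lines and 0 fell, where 11.4% of all genes passed as higher. The median log2 fold change was 0.70 over the list and -0.01 over all genes. Those that passed included Aif1 (1.02), Csf1r (0.81), Itgam (0.78), Cx3cr1 (0.70) and Tmem119 (0.43), while P2ry12 (-0.06), Sall1 (0.18) and Siglech (0.29) did not. The summed level of the 9 markers was 382 to 467 CPM in parental mice and 435 to 862 CPM in PS19 mice, where PS/E2H replicate 4 at 435 CPM was the only one inside the parental range.

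Each member was therefore set against these markers within each mouse, as the difference between its log2(FPKM + 0.1) and the mean of the 9 markers on that scale. Over all lines the difference was higher in PS19 mice by 0.68 for Fcgr1, 0.81 for Fcgr3, 1.59 for Fcgr4, 0.85 for Fcer1g and 1.22 for Fcgr2b. All 5 passed an exact two-sided permutation test within lines, with adjusted p from 1.05e-04 to 1.68e-04 over 9 differences. For Fcgr1 12 of 12 PS19 mice lay above all parental mice, for Fcgr2b, Fcgr3 and Fcer1g 11, and for Fcgr4 9. Fcgrt went the other way at -0.11 (exact permutation p = 0.216), so that it did not pass. Against the 4 markers left without P2ry12, Tmem119, Cx3cr1, Sall1 and Siglech the 5 differences were smaller, from 0.35 (Fcgr1) to 1.26 (Fcgr4), and still passed, and Fcgrt was then lower by 0.44 (exact permutation adjusted p = 4.20e-04). Within a line the smallest exact p with 4 against 3 mice is 0.0286, and adjusted p over the 9 differences did not go below 0.0514.

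Among PS19 mice the Fcgr1 difference had the smallest spread. It was -2.46 to -2.32 in E2H, -3.05 to -2.67 in E3H and -2.81 to -2.61 in E4H mice, and -2.03 to -1.91, -2.17 to -2.004 and -1.99 to -1.65 in the matching PS19 groups. PS/E2H replicate 4, low in both Fcgr1 and the markers, therefore did not stand apart from its group here. For Fcgr3 that mouse lay at 1.73 with the other 3 PS/E2H mice at 0.211 to 0.596.

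**Figure D3:**
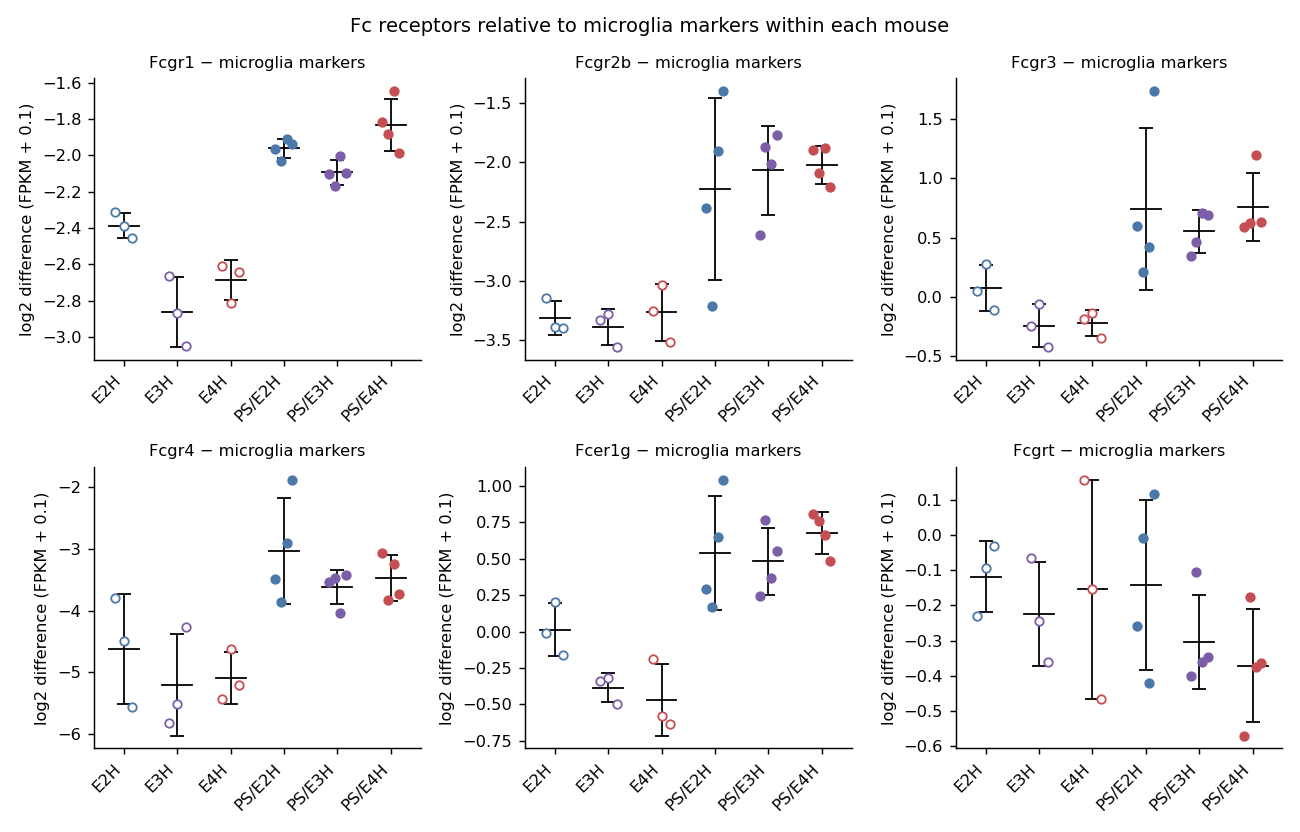
Log2(FPKM + 0.1) of each Fc receptor gene minus the mean of 9 microglia markers on the same scale, per mouse and group (open parental, filled PS19, line and bars for mean and 1 SD). All 12 PS19 mice lie above all 9 parental mice for Fcgr1, 11 do for Fcgr2b, Fcgr3 and Fcer1g and 9 for Fcgr4, while for Fcgrt the PS19 mean is lower by 0.11. Each panel has its own vertical range.

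The balance of activating and inhibitory receptors was measured as the within-mouse difference from Fcgr2b on the same scale. For Fcgr1 it was 0.68 ± 0.262 (SD, n = 9) in parental and 0.14 ± 0.449 (SD, n = 12) in PS19 mice, a change of -0.54 (exact permutation p = 0.00429, adjusted p = 0.00552). For Fcgr3 it was 3.19 ± 0.212 and 2.79 ± 0.343, a change of -0.40 (exact permutation p = 0.00313, adjusted p = 0.00469). On this scale Fcgr2b rose more than Fcgr1 and Fcgr3, and 8 of 12 PS19 mice for Fcgr1 and 7 for Fcgr3 lay below all parental mice. For Fcgr4 the difference from Fcgr2b was -1.65 ± 0.689 and -1.27 ± 0.462, and the change of 0.38 did not pass (exact permutation p = 0.112, adjusted p = 0.126).

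With a pseudocount of 1 FPKM in place of 0.1, the change was -0.27 for Fcgr1, 0.13 for Fcgr3 and -0.30 for Fcgr4. The exact permutation adjusted p was 0.0316, 0.197 and 0.0152, so Fcgr3 no longer passed and Fcgr4 passed as lower. The direction for Fcgr3 and Fcgr4 depended on the pseudocount. The FPKM of Fcgr2b in parental mice was 0.661 to 0.900 and that of Fcgr4 0.0562 to 0.471. On log2(CPM + 0.1) the changes were -0.60, -0.50 and 0.38. Within single lines none of the 3 differences from Fcgr2b passed, with exact permutation adjusted p from 0.0857 to 0.600.

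**Figure D4:**
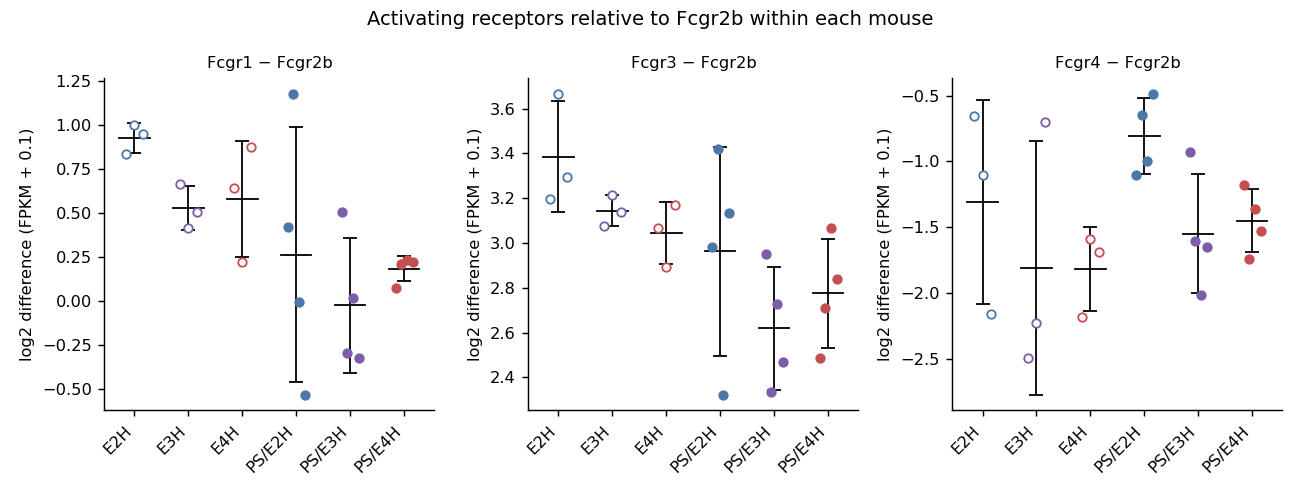
Log2(FPKM + 0.1) of each activating receptor minus that of Fcgr2b, per mouse and group (open parental, filled PS19, line and bars for mean and 1 SD). For Fcgr1 and Fcgr3 the PS19 mice lie lower on average, with PS/E2H replicate 2 the highest PS19 mouse in both panels, and for Fcgr4 the ranges overlap. Each panel has its own vertical range.

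Markers of other cells that can carry Fc receptors were read in the same libraries. Of 7 border macrophage markers 6 rose over all lines (Ms4a7 1.91, F13a1 1.45, Lyve1 1.29, Mrc1 1.29, Cd163 0.96 and Cbr2 0.93 on the log2 scale), and their summed level was 7.86 to 14.9 CPM in parental and 18.4 to 35.8 CPM in PS19 mice, with none of the 7 at 0 in any group. Of 7 monocyte and neutrophil markers 1 rose, Ccr2 (log2 1.11, adjusted p = 0.0325), with sums of 1.06 to 11.1 and 1.13 to 31.3 CPM. Over all lines 0 of 5 B and plasma cell, 0 of 3 tested NK cell and 0 of 4 mast cell markers passed with edgeR. The mast cell sum was 0.0798 to 0.469 CPM in parental mice. It reached 0.562 CPM in PS/E2H, 3.67 in PS/E3H and 6.28 in PS/E4H mice, and 1 marker passed in PS/E4H against E4H. The B and plasma cell sum was 0.284 to 2.11 CPM over all mice and the NK cell sum 0.179 to 0.940 CPM. Of 4 astrocyte markers 4 rose, of 4 oligodendrocyte markers 2, of 5 endothelial markers 2 and of 5 red blood cell genes 0, while 3 of 4 neuron markers fell. In this fit 11.4% of all genes passed as higher and 9.63% as lower. The part of border macrophages and of the other cells in the rise of the Fc receptors was not tested.

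The genes that act with the receptors were counted in lists of the pathway. Among 10 ITAM adaptors and proximal kinases, 7 rose over all lines and 0 fell, with a median log2 fold change of 0.75. In the E4, E3 and E2 lines 5, 3 and 0 passed. Over all lines 11.4% of all genes passed as higher. In the E4, E3 and E2 lines 8.62%, 3.35% and 0.669% of all genes did, a share that fell in the same order. Fgr (2.80 ± 0.337 SE) and Lyn (0.82 ± 0.0932) are Src-family kinases of myeloid cells, Tyrobp (1.57 ± 0.146) is the ITAM adaptor of TREM2, and Btk (1.28 ± 0.197) is a Tec-family kinase. Fyn (0.01 ± 0.0387) and Src (-0.05 ± 0.0537), Src-family kinases that neurons express, did not pass and were named after their values were seen.

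Among 16 downstream effectors 10 rose over all lines and 0 fell, with a median of 0.57, where 11.4% of all genes passed as higher. In the E4, E3 and E2 lines 9, 4 and 3 passed, where 8.62%, 3.35% and 0.669% of all genes passed as higher. The largest were Dock2 (1.33 ± 0.137 SE) and Rac2 (1.28 ± 0.163), which drive actin remodelling in blood cells, Lat2 (1.29 ± 0.215), an adaptor, Vav1 (1.16 ± 0.118), an exchange factor for Rac proteins, and Was (1.16 ± 0.151), which activates actin nucleation. Rac1 (-0.02 ± 0.0360) and Vav3 (0.08 ± 0.0979), relatives of Rac2 and Vav1 that were named after their values were seen, did not pass.

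The inhibitory arm also rose. Of 11 genes of inhibitory signalling 6 rose over all lines and 0 fell, with a median of 0.48, where 11.4% of all genes passed as higher. In the E4, E3 and E2 lines 6, 5 and 1 passed as higher, where 8.62%, 3.35% and 0.669% of all genes did. In the E3 line 1 was lower, where 2.02% of genes passed as lower. The genes that rose over all lines were led by Lilrb4a (3.14 ± 0.346 SE) and Pirb (1.47 ± 0.205), ITIM receptors, and by Ptpn6 (1.39 ± 0.139), the phosphatase SHP-1. Inpp5d (0.83 ± 0.0793), the phosphatase that Fcgr2b recruits, and Dok1 (0.79 ± 0.144), an adaptor, followed. Of 12 other Fc receptors and Fc receptor-like genes, 8 were tested and 2 rose: Fcrls (1.33 ± 0.171), a microglial gene, and Trim21 (0.62 ± 0.120), a cytosolic antibody receptor. Fcer1a and Ms4a2, the other chains of the IgE receptor to which Fcer1g belongs, were too low to be tested.

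**Figure D5:**
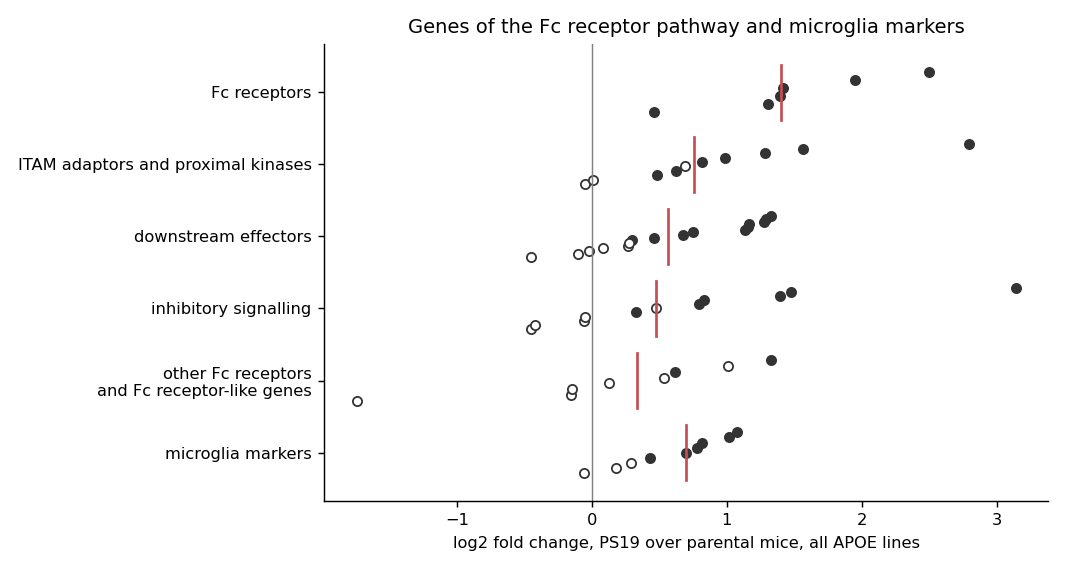
Log2 fold change over all APOE lines, PS19 over parental mice, for the Fc receptors, for the tested genes of 4 lists around them and for the microglia markers, 1 point per gene, with filled points for an adjusted p under 0.05 and a red line at the list median. The medians are 1.40 for the 6 Fc receptors, 0.75 for ITAM adaptors and proximal kinases, 0.57 for downstream effectors, 0.48 for inhibitory signalling, 0.33 for other Fc receptors and 0.70 for microglia markers.

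Of 15 ligands and partners 11 were tested over all lines, and 5 rose and 1 fell, where 11.4% of all genes passed as higher and 9.63% as lower. B2m, the light chain of FcRn, rose by a log2 value of 0.99 ± 0.0992 (SE, adjusted p = 2.60e-07), from 6395 to 7794 counts in parental to 8506 to 17235 in PS19 mice. Immunoglobulin transcripts were uneven between mice: Igkc had 13 to 134 counts in parental mice and 19 to 1548 in PS19 mice and passed (adjusted p = 0.0281), as did Jchain (19 to 65 and 17 to 356, adjusted p = 0.0321) and Igha (0 to 13 and 0 to 157, adjusted p = 0.00346). Iglc2, also passing, had 0 counts in all 9 parental mice and 0 to 29 in PS19 mice, with 6 of 12 above 0. The E2 line did not show the rise of Igkc and Jchain. Igkc had 36, 134 and 65 counts in E2H and 23, 42, 142 and 29 in PS/E2H mice. Jchain had 61, 26 and 47 in E2H and 32, 17, 66 and 30 in PS/E2H mice. Igha had 8, 8 and 0 in E2H and 7, 28, 51 and 15 in PS/E2H mice. The IgG heavy chain genes, whose products are what the Fc gamma receptors bind, did not pass: Ighg1, Ighg2b, Ighg2c and Ighg3 had adjusted p of 0.107 to 0.815. Alb, whose product FcRn also salvages, was lower in PS19 mice (adjusted p = 3.51e-05), with 0 counts in 11 of 12 and 15 in the other. The parental mice had 0 to 542 counts, split by line: 0, 0 and 29 in E2H, 542, 280 and 24 in E3H and 264, 15 and 143 in E4H.

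Among the IgG genes Ighg2c set the E4H mice apart from E2H and E3H mice, a gene picked out after its values were seen. Ighg1, Ighg2b and Ighg3 were also at 0 in E4H mice, and reached at most 16, 110 and 13 counts in the other parental mice. It had 253, 378 and 271 counts in E2H, 327, 228 and 275 in E3H and 0, 0 and 0 in E4H mice. The PS/E4H mice had 28, 44, 9 and 169 counts, PS/E2H 235, 225, 102 and 75 and PS/E3H 269, 503, 204 and 341. For Ighg2c the E4H mice were lower than E3H (edgeR adjusted p = 2.29e-05) and than E2H (adjusted p = 0.00184). No Fc gamma receptor differed between these groups at an adjusted p under 0.05. Ighg2c did not pass in E2H against E3H mice (edgeR adjusted p = 0.724). Nor did it pass in PS/E4H against PS/E3H (adjusted p = 0.758) or PS/E2H mice (adjusted p = 0.445). A count of 0 says that no read was assigned to this gene model, and whether the lines carry different immunoglobulin heavy chain alleles was not tested. Ighm, the IgM heavy chain gene, was also lower in E4H than in E3H mice (log2 -0.73 ± 0.0980 SE, edgeR adjusted p = 0.0203). Against E2H mice Ighm did not pass (edgeR adjusted p = 0.346).

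The members did not all vary together among the PS19 mice. Over the 12 PS19 mice, as a description, Pearson's r of log2 CPM was 0.86 between Fcgr2b and Fcer1g, 0.74 between Fcgr2b and Fcgr3 and 0.72 between Fcgr1 and Fcer1g, and 0.07 between Fcgr1 and Fcgr4 and -0.28 between Fcgr4 and Fcgrt. Over the 9 parental mice Fcgr3 and Fcer1g gave 0.89 and Fcgr2b and Fcer1g 0.22. Among the genes most like each member over the PS19 mice were Ly86 (0.93) and Cmtm6 for Fcgr1, Plac8 (0.97), Eif5 and Vezf1 for Fcgr2b, Rab31 (0.94), Ifngr1 and Ctso for Fcgr3, Mfsd4b5 (0.89), Gm6300 and Homez for Fcgr4, Gfap (0.97), Nt5dc1 and Abhd10 for Fcer1g, and Rhoc (0.96), Dnase2a and Nol7 for Fcgrt. Over the 9 parental mice the r was 0.70 for Ly86, 0.05 for Plac8, 0.65 for Rab31, -0.23 for Mfsd4b5, 0.60 for Gfap and 0.81 for Rhoc. All points share their library, tissue and the 3 APOE lines.

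Genes near the members were also counted. Of 33 tested protein-coding genes that start within 500 kb of the 4 members on chromosome 1, 8 rose over all lines, among them Arhgap30, Cd48, F11r, Ly9, Nectin4, Slamf7 and Ufc1, and 3 fell. Around Fcgr1 on chromosome 3, 6 of 35 rose and 1 fell, and around Fcgrt on chromosome 7, 9 of 54 rose and 6 fell. Of all genes 11.4% passed as higher and 9.63% as lower in this fit. The median log2 fold change of the neighbours was 0.12, 0.10 and 0.01, against -0.01 for all genes.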

How the data were processed

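Per the labels and the paper's methods, TruSeq stranded poly(A) libraries were sequenced as paired reads on an Illumina NovaSeq, trimmed with cutadapt, aligned to GRCm38.p5 with HISAT2 and assembled with StringTie. Total counts per mouse were 59265459 to 75932183. The authors deposited raw counts per gene and FPKM values, scaled for length and depth. Tool versions, and how counts were taken from StringTie, are not given in the sources used here.

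Counts were tested with edgeR 4.0.16 (quasi-likelihood F test, TMM scaling, filterByExpr with minimum count 10 and minimum total 15) in R 4.3.3, each comparison on its own groups, and tau over all lines with line as a term. Passed means a Benjamini-Hochberg adjusted p under 0.05 over all genes tested. The standard error is the absolute log2 fold change divided by the square root of F. FPKM differences within a mouse used log2(FPKM + 0.1) and exact two-sided permutations within lines (42875 over all lines, 35 in a line), in Python 3.11.15. Both were tested on simulated data. Named genes are the 6 members, up to 5 passing genes with the largest change over all lines in each pathway list, and the 3 genes whose log2 CPM correlated best with each member over PS19 mice, together with the cell markers and ligands, and Fyn, Src, Rac1, Vav3, Fcer1a and Ms4a2 were named after their values were seen. The members, lists and tests were chosen with earlier results of these data known. Alternatives were DESeq2 1.42.0, RLE scaling, no filter, limma 3.58.1 on log2(FPKM + 1) and log2(FPKM + 0.1), a replicate block, all 21 mice in 1 fit with and without Xist, and leaving out each mouse. Gene names and positions are from GENCODE M21, promoters from RefSeq (GRCm38.p6), which held all 6 members. All 27 within-group pairs of mice differed by more than sampling noise. The labels do not say how litters fell into groups. Amino acid sequences were not used here. Some genes that meet these rules are not reported here.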

Additional observations from a re-analysis of the deposited data

Results flagged for a closer look

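In PS/E4H mice, 1 of 4 values of Fcgr1 minus Fcgr2b lay apart from the other 3: the gap between the lowest mouse, at 0.0737, and the next was 0.864 of the whole range, which itself was small (0.0737 to 0.228 on the log2 scale). In the same group, 1 value of Fcgr3 minus the microglia markers, at 1.19, lay above the other 3 (0.591 to 0.631) by 0.933 of the range. That mouse was PS/E4H replicate 3, which also had the highest Fcgr3 level of all 21 mice, 56.2 CPM. Of 45 groups of values examined these 2 were apart by this measure, and chance alone gives about 1 in 20.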

How the results depend on the processing

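The 38 member log2 fold changes compared across settings kept their direction in every fit, and 277 of 298 values in other settings and 361 of 378 without 1 mouse kept their side of the threshold. The PS/E2H against E2H counts moved most. Of 6 members, 5 passed there with DESeq2 and 5 with all 21 mice in 1 fit, 4 with Xist as a covariate as well, 0 with no filter on low counts and 0 with limma on log2(FPKM + 1), and 0 to 2 without single mice. At least 2-fold higher were 3 with DESeq2, 3 with all 21 mice, 2 with Xist, 0 with no filter, 0 with limma on log2(FPKM + 1) and 0 to 2 without single mice. With limma on log2(FPKM + 1), 3 members were called at 2-fold in PS/E3H against E3H and 3 over all lines. DESeq2 passed 1 member, Fcer1g, in the interaction of tau with APOE4 against APOE2. DESeq2 also passed more genes, 690 against 155 in the PS/E2H and 2468 against 1141 in the PS/E3H comparison. In the APOE comparisons it passed 590 against 37 genes (E2H, E3H), 160 against 34 (E4H, E3H), 322 against 45 (E4H, E2H), 152 against 23 (PS/E2H, PS/E3H), 35 against 4 (PS/E4H, PS/E3H) and 253 against 24 (PS/E4H, PS/E2H). Leaving out mice gave 5 to 6 members passing in PS/E4H and 4 to 6 in PS/E3H.

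With log2(FPKM + 1) the change of Fcgr3 minus Fcgr2b was 0.13, which did not pass, and that of Fcgr4 minus Fcgr2b -0.30, which did. Fcgrt minus the microglia markers was -0.44 without the 5 homeostatic markers. Fcgr4 minus Fcgr2b was 0.23 to 0.56 without single mice and passed without E3H replicate 3. The cause of these shifts was not tested.

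With a replicate block, 1 member passed in PS/E2H against E2H, Fcgr1 in place of Fcgr2b, with 0 called at 2-fold, and 4 passed in PS/E3H against E3H. Deviations of mice with the same replicate number correlated at -0.119 to 0.0946, so the numbers were not taken to pair the mice. Fcgr4 counts of 6 to 49 in parental mice limit its precision.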
